A study of Mus musculus with 4 samples.

Results

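Branched-chain amino acid catabolism is described here through 10 genes: Bcat1, Bcat2, Bckdha, Bckdhb, Dbt, Mccc1, Mccc2, Pcca, Pccb and Hibch. They were chosen by name for their place in the pathway, and each was found as 1 row of RefSeq transcripts among 13085 measured genes. Expression was measured by RNA-seq in 4 stable lines made from 3T3-L1, mouse preadipocytes that turn into adipocytes under hormones, with 1 sample per line. All 4 lines were started in medium with insulin (5 μg/mL), dexamethasone (1 μg/mL), IBMX (0.5 mM) and rosiglitazone (5 μM), an agonist of PPARγ. From day 2, medium with insulin (5 μg/mL) as the only one of these was added every 2 days. RNA was taken on differentiation day 8. FLAG cells carry the empty FLAG vector and FLAG-CACUL1 cells overexpress CACUL1 from it (the species of the insert is not stated). The sh-CACUL1 line expresses a short hairpin RNA against CACUL1, and the hairpin of sh-Luc is against luciferase. The FLAG lines were selected with G418 and the sh lines with Hygromycin B, from resistant colonies of transfected cells, so vector and drug cannot be told apart between the 2 kinds of control. Each difference below has no replicate check, no test was possible, and a difference between samples may be one between cell lines.

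The targeted gene, Cacul1, was at 9.61 FPKM in FLAG and 11.8 in FLAG-CACUL1, and at 10.2 with sh-Luc and 5.39 with sh-CACUL1. FPKM counts fragments relative to the length of the transcript and the total of the sample. Cacul1 was thus lowest in sh-CACUL1, 1.90-fold below sh-Luc, and 1.23-fold above FLAG in FLAG-CACUL1. The samples are labelled as preadipocytes, but adipocyte markers were expressed in every one of them, apart from Cebpa in sh-Luc (0.421 FPKM). The FPKM of 8 such markers summed to 7451 in FLAG and 913 in FLAG-CACUL1, and 1729 with sh-Luc and 16683 with sh-CACUL1. Fabp4 alone was at 4991 in FLAG and 12543 in sh-CACUL1. Adipoq, Cd36 and Cidec were likewise higher in sh-CACUL1 than in FLAG, and Pparg, Cebpa, Plin1 and Lpl were lower. The sum of 8 preadipocyte and fibroblast markers was 7222, 8387, 4569 and 1054, respectively, and came mostly from Col1a1, Col3a1 and Vim. In sh-Luc Dlk1 (0.220 FPKM) and Thy1 (0.663 FPKM) were near 0. These 2 went against the sum, at 21.2 and 34.3 FPKM in sh-CACUL1, where the other 6 were lower than in sh-Luc. Of markers of other cell types, 2 of 4 for macrophages, 1 of 3 for endothelium, 1 of 3 for muscle and 0 of 3 for osteoblasts were measured. The macrophage marker Cd68 was at 16.2 FPKM in FLAG and at most 1.44 elsewhere, Pecam1 of endothelium was at most 0.301 and Des of muscle was between 1.13 and 8.35. In bulk RNA, fewer cells of a type and less RNA per cell cannot be told apart. From steps in low FPKM values, depth was estimated at 14500000, 14300000, 24200000 and 15100000 fragments in the same order.

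Leucine, isoleucine and valine share the first 2 steps of their breakdown. A branched-chain aminotransferase, cytosolic (Bcat1) or mitochondrial (Bcat2), moves the amino group to α-ketoglutarate. The branched-chain ketoacid dehydrogenase complex (BCKDH) of the mitochondrion then removes a carboxyl group in an irreversible step, with Bckdha and Bckdhb as the E1α and E1β subunits and Dbt as the E2 core. After it the routes part, towards acetyl-CoA and acetoacetate from leucine and towards propionyl-CoA from valine and, with acetyl-CoA, from isoleucine. Differentiated adipocytes are known to use these amino acids as a carbon source for lipid and energy.

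The sequence upstream of the start of 3 members is shown, since Bcat1 and Bcat2 are the isoenzymes that differed most in opposite directions in sh-CACUL1, and Bcat2 and Bckdhb are the members that were 2-fold lower in FLAG-CACUL1 and 2-fold higher in sh-CACUL1. The sequences are from RefSeq on GRCm38.p6, 250 bases each, read 5′ to 3′ on the gene's own strand. They cover chr6:145076158-145076407 (minus strand) for Bcat1, chr7:45569903-45570152 (plus strand) for Bcat2 and chr9:83924887-83925136 (plus strand) for Bckdhb. Capitals mark a nuclear receptor half-site (AGGTCA) or a CCAAT box (CCAAT) on either strand, so that ATTGG is a CCAAT box on the other strand.
Bcat1: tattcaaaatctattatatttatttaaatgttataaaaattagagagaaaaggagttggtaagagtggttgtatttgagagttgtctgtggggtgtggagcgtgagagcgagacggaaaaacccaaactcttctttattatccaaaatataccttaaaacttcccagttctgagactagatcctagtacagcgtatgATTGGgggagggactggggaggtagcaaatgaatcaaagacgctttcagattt
Bcat2: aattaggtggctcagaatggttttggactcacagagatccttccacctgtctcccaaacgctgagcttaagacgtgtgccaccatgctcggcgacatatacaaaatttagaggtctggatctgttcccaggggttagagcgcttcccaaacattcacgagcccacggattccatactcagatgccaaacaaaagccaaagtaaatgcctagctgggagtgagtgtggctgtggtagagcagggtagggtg
Bckdhb: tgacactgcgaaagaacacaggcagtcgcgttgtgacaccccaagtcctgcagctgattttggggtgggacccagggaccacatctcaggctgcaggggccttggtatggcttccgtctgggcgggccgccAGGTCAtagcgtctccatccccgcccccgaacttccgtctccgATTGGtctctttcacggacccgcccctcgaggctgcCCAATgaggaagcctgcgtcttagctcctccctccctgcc
The Bckdhb stretch held a half-site at position -119 from the RefSeq start and CCAAT boxes at -76 and -40, and the Bcat1 stretch a CCAAT box at -53. The RefSeq starts of these 2 genes differ from the GENCODE gene coordinates given below. By those, the end of the Bcat1 stretch lies inside the gene (start at 145076184), and the Bckdhb stretch stops short of the gene (start at 83925145). The Bcat2 stretch held neither. Across the 13 promoters listed for 9 of the members, the half-site was in 3 (Bcat1, Bckdhb and Pcca, some in other promoters of these genes than those shown) against 14.0% of all 32851 promoters, and the CCAAT box in 6 against 33.8%. A direct repeat of the half-site with 1 base between the copies is the form bound by PPARγ with RXRα and itself a case of the half-site. Its exact letters were in 0 of 13 and in 0.0335% of all (11 of 32851). With a match this rare, 0 of 13 says nothing about PPARγ sites at these genes. A match describes letters only and does not show a bound site.

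The aminotransferases separated the lines most. Bcat2 (NM_001243053, chr7:45570153-45589711, plus strand) was at 58.1 FPKM in FLAG and 26.4 in FLAG-CACUL1, and at 35.3 with sh-Luc and 152 with sh-CACUL1. Relative to its own control it was thus 2.20-fold lower under overexpression and 4.31-fold higher under knockdown of CACUL1. On the log2(FPKM + 1) scale, used for all changes below, these are -1.11 and 2.08. Bcat1 (NM_007532, chr6:144993835-145076184, minus strand) was at 3.07 FPKM in FLAG and 4.45 in FLAG-CACUL1, and at 3.75 with sh-Luc and 0.381 with sh-CACUL1. It ran against its isoenzyme, highest where Bcat2 was lowest and lowest where Bcat2 was highest, with changes of 0.42 and -1.78. Bcat1 was 9.83-fold lower in sh-CACUL1 than in sh-Luc, with a 95% interval of 5.72 to 17.5 that covers counting error only. The interval rests on the estimated depth and on the shorter of 2 Bcat1 transcripts (2556 against 7833 bases). With these, the sh-CACUL1 value stands for 15 fragments. The ratio of Bcat2 to Bcat1 was 18.9 in FLAG and 5.93 in FLAG-CACUL1, and 9.43 with sh-Luc and 399.7 with sh-CACUL1, the widest range of the pairs compared.

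**Figure D1:**
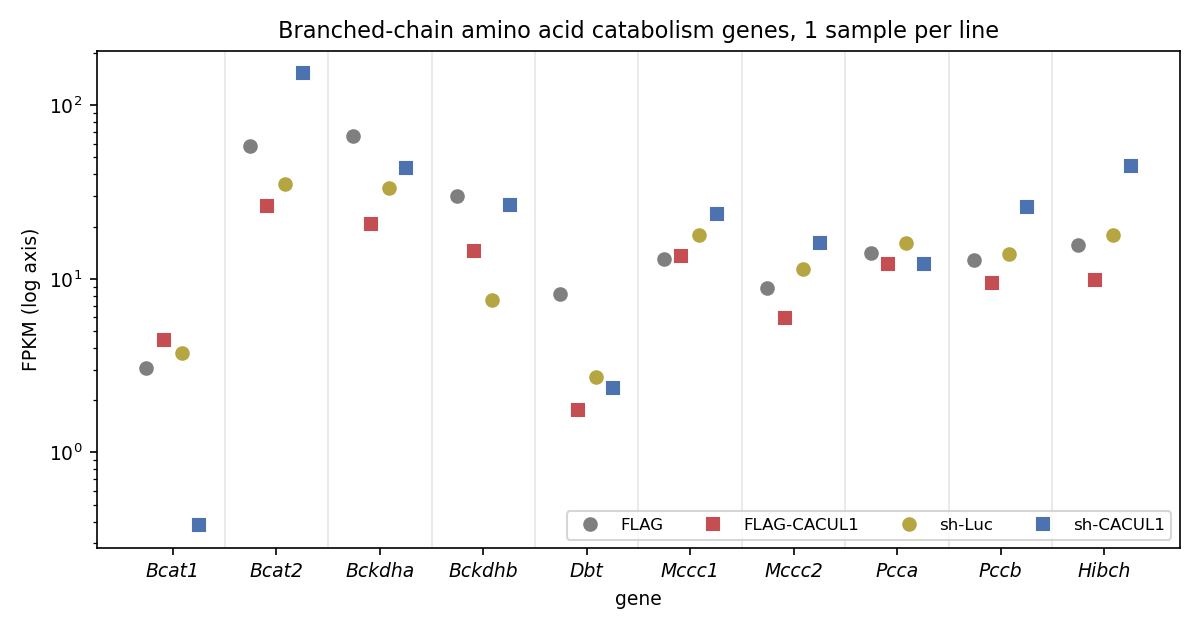
FPKM (log axis) of the 10 genes in the 4 samples, with circles for the controls and squares for FLAG-CACUL1 and sh-CACUL1; each point is 1 sample and has no error bar. Bcat2 and Hibch were highest in sh-CACUL1 (152 and 44.5 FPKM), where Bcat1 was lowest (0.381 FPKM).

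Bckdha, Bckdhb and Dbt stood below FLAG by 2-fold or more in FLAG-CACUL1, and of these 3 genes only Bckdhb stood above sh-Luc by that much in sh-CACUL1. Bckdha (NM_007533, chr7:25629946-25658981, minus strand) was at 66.5 FPKM in FLAG and 20.8 in FLAG-CACUL1, and at 33.3 with sh-Luc and 43.6 with sh-CACUL1, with changes of -1.63 and 0.38. Bckdhb (NM_199195, chr9:83925145-84124240, plus strand) was at 30.1, 14.4, 7.59 and 26.4 FPKM, respectively, with changes of -1.01 and 1.68. FLAG was the highest sample for both E1 genes, and the lowest was FLAG-CACUL1 for Bckdha and sh-Luc for Bckdhb. The lower level of Bckdhb in FLAG-CACUL1 is close to the cut-off, since its 2.09-fold ratio has a counting interval of 1.82 to 2.42. Against the control with the other vector both changes of Bckdhb turned, to 0.84 in FLAG-CACUL1 against sh-Luc and -0.18 in sh-CACUL1 against FLAG, and Bckdha in sh-CACUL1 stood at -0.60 against FLAG. Dbt (NM_010022, chr3:116513070-116549981, plus strand) was at 8.20 FPKM in FLAG and 1.76 in FLAG-CACUL1, and at 2.71 with sh-Luc and 2.34 with sh-CACUL1. FLAG alone stood high, and the changes were -1.74 and -0.15, of which the latter became 0.24 after quantile normalization and 0.19 after median-of-ratios scaling. The log2 ratio of Dbt FPKM between sh-CACUL1 and sh-Luc has a counting interval of -0.54 to 0.12, so no difference was detectable at this depth.

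The E1 and E2 genes did not keep 1 proportion. Bckdha was 2.21 times as high as Bckdhb in FLAG, 1.45 times in FLAG-CACUL1, 4.39 times in sh-Luc and 1.65 times in sh-CACUL1. Bckdhb was 3.67, 8.18, 2.80 and 11.3 times as high as Dbt in the same order of samples. The E2 gene was therefore the lowest of the 3 in every line, and the gap to Bckdhb was wider in both CACUL1 lines than in their controls. Dld, the E3 subunit that BCKDH shares with pyruvate dehydrogenase, was at 92.1 FPKM in FLAG and 57.8 in FLAG-CACUL1, and at 70.7 with sh-Luc and 175 with sh-CACUL1, with changes of -0.66 and 1.29. Of the enzymes that set the activity of the complex, the inhibiting kinase Bckdk changed by -0.55 and -0.71 and the activating phosphatase Ppm1k by -0.58 and 1.04. The medians of all genes in these comparisons were 0.09 and -0.30, so part of the lower Bckdk in sh-CACUL1 is shared by most genes. Ppm1k was low throughout, between 0.964 and 3.44 FPKM.

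**Figure D2:**
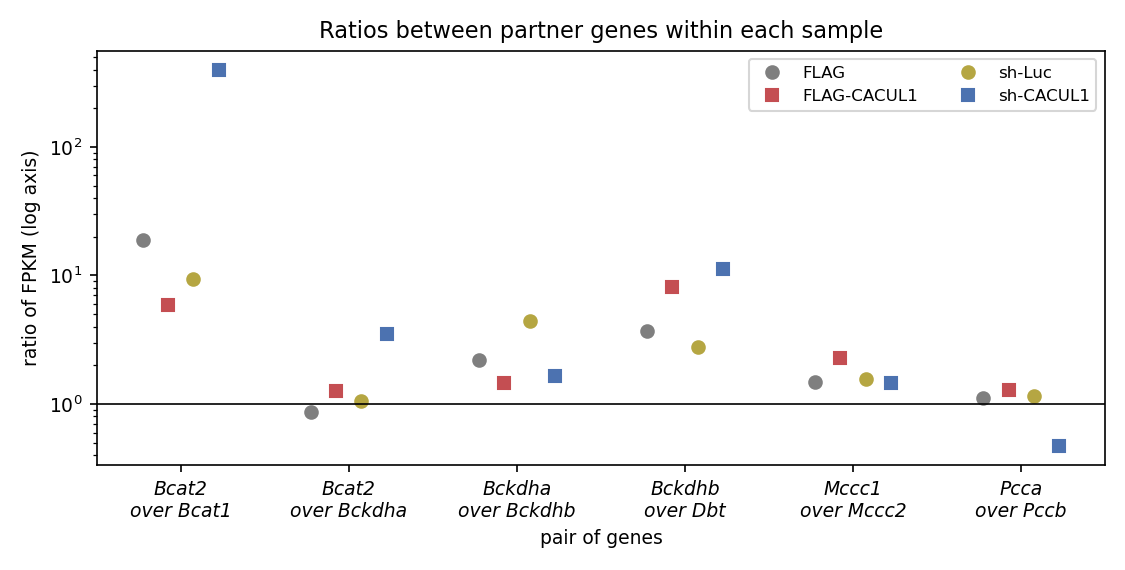
Ratio of FPKM (log axis) between 6 pairs of genes within each of the 4 samples; each point is 1 sample, and the line marks equal levels. The ratio of Bcat2 to Bcat1 reached 399.7 in sh-CACUL1, while that of Mccc1 to Mccc2 stayed between 1.47 and 2.26.

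Methylcrotonyl-CoA carboxylase, a biotin enzyme of the leucine route, is built from Mccc1 (α, with the biotin) and Mccc2 (β). Mccc1 (NM_023644, chr3:35959312-36000678, minus strand) was at 13.1 FPKM in FLAG and 13.5 in FLAG-CACUL1, and at 17.8 with sh-Luc and 23.5 with sh-CACUL1. Mccc2 (NM_030026, chr13:99948530-100015639, minus strand) was at 8.87, 5.98, 11.4 and 16.0 FPKM, respectively. Both were highest in sh-CACUL1, and neither reached 2-fold. Mccc1 changed by 0.05 and 0.38 and Mccc2 by -0.50 and 0.46. The small change of Mccc1 in FLAG-CACUL1 became -0.02 after quantile normalization and -0.08 after median-of-ratios scaling, so its direction depends on the scaling.

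Propionyl-CoA carboxylase, the biotin enzyme that takes up propionyl-CoA from isoleucine and valine, has the subunits Pcca (α) and Pccb (β), which parted in sh-CACUL1. Pcca (NM_144844, chr14:122534324-122891100, plus strand) was at 14.1 FPKM in FLAG and 12.1 in FLAG-CACUL1, and at 16.1 with sh-Luc and 12.1 with sh-CACUL1. Pccb (NM_025835, chr9:100982032-101034898, minus strand) was at 12.8, 9.49, 13.9 and 25.9 FPKM, respectively. Pcca varied least of the 10 genes, and Pccb stood high in sh-CACUL1 alone. The ratio of Pcca to Pccb was 1.11, 1.28 and 1.16 in FLAG, FLAG-CACUL1 and sh-Luc and 0.467 in sh-CACUL1. Pcca changed by -0.21 and -0.39, the latter becoming 0.05 after quantile normalization and 0.06 after median-of-ratios scaling. Pccb changed by -0.39 and 0.85, and the latter passed 2-fold after either scaling (1.30 in both).

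Hibch, which frees 3-hydroxyisobutyrate from its CoA ester in the valine route, was also highest in sh-CACUL1. Hibch (NM_146108, chr1:52844929-52920986, plus strand) was at 15.7 FPKM in FLAG and 9.82 in FLAG-CACUL1, and at 17.9 with sh-Luc and 44.5 with sh-CACUL1. The sh-CACUL1 value was 2.49-fold above that of sh-Luc, and FLAG-CACUL1 was the lowest sample. The changes were -0.62 and 1.27.

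In FLAG-CACUL1 against FLAG, 4 of 10 members were at least 2-fold lower (Bcat2, Bckdha, Bckdhb and Dbt) and 0 were higher, where 7.22% of all genes were lower and 7.51% higher by that much. Against sh-Luc, the control with the other vector, 0 members were 2-fold lower in FLAG-CACUL1, where 4.87% of all genes were, with Bcat2 at -0.41, Bckdha at -0.65 and Dbt at -0.43. The median change of the members against FLAG was -0.56 and that of all genes 0.09. In sh-CACUL1 against sh-Luc, 3 members were at least 2-fold higher (Bcat2, Bckdhb and Hibch), where 4.94% of all genes were, and 1 was lower (Bcat1), where 16.4% were. The median was 0.42 for the members and -0.30 for all genes, so relative to all genes Bcat2 stood at 2.38, Bckdhb at 1.98 and Hibch at 1.57. Of all genes past 2-fold, 23.2% were higher in this comparison, and 52.1% after quantile normalization and 55.8% after median-of-ratios scaling. For FLAG-CACUL1 against FLAG the share was 51.0%, 44.9% and 39.2%, respectively. The comparisons share no sample, and Bcat2 and Bckdhb were both lower in the former and higher in the latter, 2 of 10 members where 1.69% of all genes were. With no cut-off, 6 members were lower and then higher (these 2, Bckdha, Mccc2, Pccb and Hibch), against 16.1% of all genes.

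The controls themselves differed. In FLAG against sh-Luc, 2 members were at least 2-fold higher (Bckdhb by 1.86 and Dbt by 1.31), where 8.58% of all genes were, and 0 were lower, where 12.4% were. Bckdha missed the cut-off at 0.98 and passed it after either scaling, with 1.00 after quantile normalization and 1.26 after median-of-ratios scaling. The share of higher genes among all those past 2-fold was 40.8%, and 54.1% and 62.6% after these scalings. The medians were -0.15 for the members and -0.18 for all genes. This comparison uses the control samples of the others, so its values stand beside theirs and are no separate evidence. Of the members, Bckdha, Bckdhb and Dbt differed most between the controls, by 0.98 to 1.86, followed by Bcat2 at 0.70, while Bcat1 differed by -0.22 (0.025 and 0.0074 after the scalings) and Mccc1, Mccc2, Pcca, Pccb and Hibch differed by -0.42 to -0.12.

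The adipocyte markers moved to the same side as the members' medians in FLAG-CACUL1 and sh-CACUL1, but not between the controls. With the 2-fold cut-off, 8 of 8 were lower in FLAG-CACUL1 (median -3.19, 7.22% of all genes) and 8 of 8 higher in sh-CACUL1 (median 2.30, 4.94% of all genes). In FLAG relative to sh-Luc 7 of 8 were higher (median 2.23, 8.58% of all genes), where the median of the members was -0.15. Of the preadipocyte and fibroblast markers, 4 of 8 were 2-fold higher and 1 lower in FLAG-CACUL1, where 7.51% and 7.22% of all genes were. In sh-CACUL1, 2 of these 8 were higher and 5 lower, where 4.94% and 16.4% of all genes were. In FLAG relative to sh-Luc 4 were higher and 1 lower (median 0.94), where 8.58% and 12.4% of all genes were. Most markers of both kinds thus stood higher in FLAG than in sh-Luc. The part of these cell states in the levels of the catabolic genes was not tested. Bcat2 had the sample order of Fabp4, Adipoq, Cd36 and Cidec, from sh-CACUL1 through FLAG and sh-Luc to FLAG-CACUL1, an order that 3.39% of all genes had. Bckdha had the order of Pparg and Plin1 (2.55% of all genes) and Bckdhb that of Cebpa and Lpl (2.28%). Mccc2, Pccb and Hibch shared an order that no marker had, with sh-CACUL1 highest, then sh-Luc, FLAG and FLAG-CACUL1 (3.44%). Bcat1, Dbt, Mccc1 and Pcca each had another order that no marker had. Neighbours in these orders have no measured spread, so none is known to differ from the next.

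**Figure D3:**
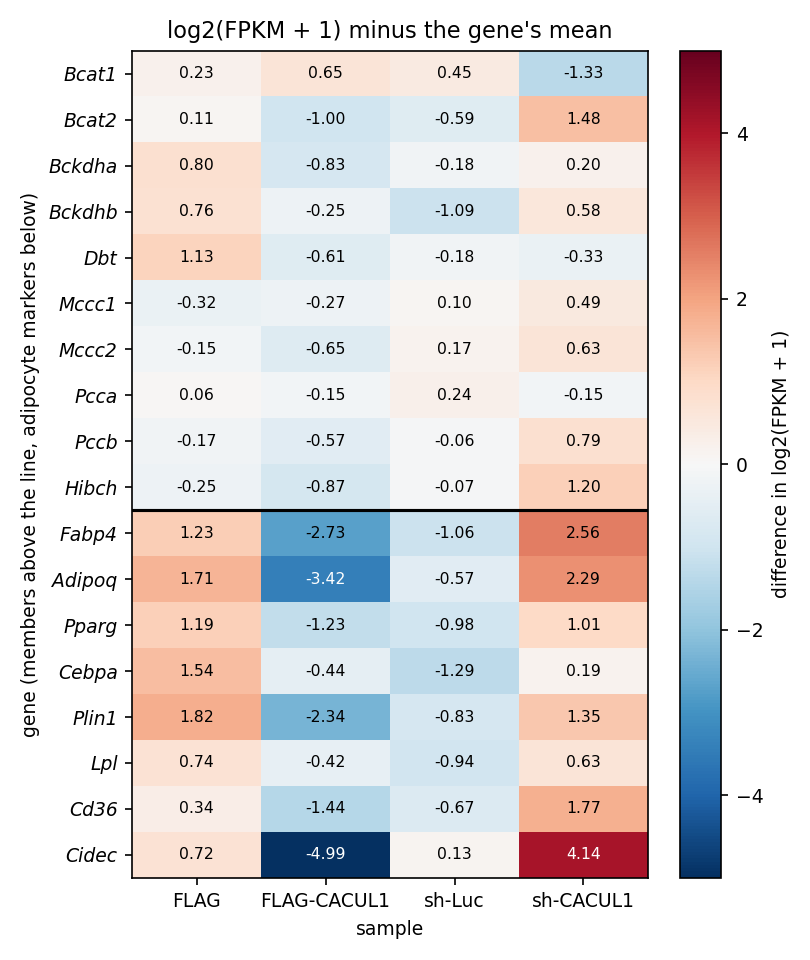
Difference of log2(FPKM + 1) from each gene's mean over the 4 samples, for the 10 members (above the line) and 8 adipocyte markers (below it); red is above and blue below the mean. Hibch ran from -0.87 in FLAG-CACUL1 to 1.20 in sh-CACUL1, and Fabp4 from -2.73 to 2.56.

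The genes most like Bcat2 over the 4 samples, by the distance between their centred log2(FPKM + 1) values among the 9563 genes at 1 FPKM or more in all samples, were Crat, Pdhb and Pxmp4. Crat, the mitochondrial carnitine acetyltransferase, was nearest (distance 0.103), at 34.9 FPKM in FLAG and 16.6 in FLAG-CACUL1, and at 20.5 with sh-Luc and 97.7 with sh-CACUL1. Pdhb, the E1β subunit of pyruvate dehydrogenase, had a distance of 0.239 and Pxmp4, a peroxisomal membrane protein, one of 0.279. With 4 samples these are descriptions of likeness.

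Beside the members, 31 other genes were listed, of which 6 are of biotin supply and other biotin carboxylases and 6 are carriers. In FLAG-CACUL1, 7 of the 31 were at least 2-fold lower and 0 higher (median -0.44), where 7.22% and 7.51% of all genes were. In sh-CACUL1, 11 were higher and 2 lower (median 0.57), where 4.94% and 16.4% of all genes were. Of the 19 genes outside these groups, 3 were lower and 0 higher in FLAG-CACUL1 (median -0.55). In sh-CACUL1, 9 of the 19 were higher and 0 lower (median 0.91). In FLAG-CACUL1, Ivd of the leucine route and Hsd17b10 and Aldh6a1 of the isoleucine and valine routes were among the lower genes. In sh-CACUL1 the higher ones included 4 of 7 genes of the isoleucine and valine routes (Echs1, Acat1, Hibadh and Aldh6a1), and Mcee and Mut after propionyl-CoA. Aldh6a1, which turns methylmalonate semialdehyde into propionyl-CoA late in the valine route, was at 31.0 FPKM in FLAG and 8.22 in FLAG-CACUL1, and at 30.2 with sh-Luc and 113 with sh-CACUL1. Hibadh, the enzyme after Hibch, was at 63.5, 42.3, 42.4 and 191 FPKM, respectively. Both stood high in sh-CACUL1, as Hibch did. Ivd, the dehydrogenase of the leucine route before Mccc1 and Mccc2, was at 64.7, 31.6, 21.4 and 56.6 FPKM, an order shared with Bckdhb.

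Biotin is the cofactor of the carboxylases. Slc5a6, a carrier of biotin and pantothenate, was at 9.54 FPKM in FLAG and 2.49 in FLAG-CACUL1, and at 6.94 with sh-Luc and 36.8 with sh-CACUL1, with changes of -1.60 and 2.25. Pcx, the biotin enzyme pyruvate carboxylase, was at 216, 29.8, 84.3 and 349.5 FPKM, respectively, with changes of -2.82 and 2.04. Both thus moved further than any of the biotin-dependent members Mccc1, Mccc2, Pcca and Pccb. Hlcs, which attaches biotin to the carboxylases, changed by -0.14 and -0.33. Of 6 amino acid carriers, 2 passed 2-fold downwards in FLAG-CACUL1 (Slc7a5 and Slc43a1), where 7.22% of all genes did. In sh-CACUL1 2 did (Slc7a5 and Slc3a2), where 16.4% of all genes did. Upwards, 0 passed it in either, where 7.51% and 4.94% of all genes did. Slc7a5, the large neutral amino acid transporter that takes up leucine, was at 58.3 FPKM in FLAG and 16.7 in FLAG-CACUL1, and at 69.4 with sh-Luc and 14.5 with sh-CACUL1, lower in both CACUL1 lines than in their controls (-1.75 and -2.18). Its partner chain Slc3a2 changed by -0.15 and -1.11, the latter falling short of 2-fold after either scaling, and the mitochondrial carrier Slc25a44 changed by 0.35 and 0.14.

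**Figure D4:**
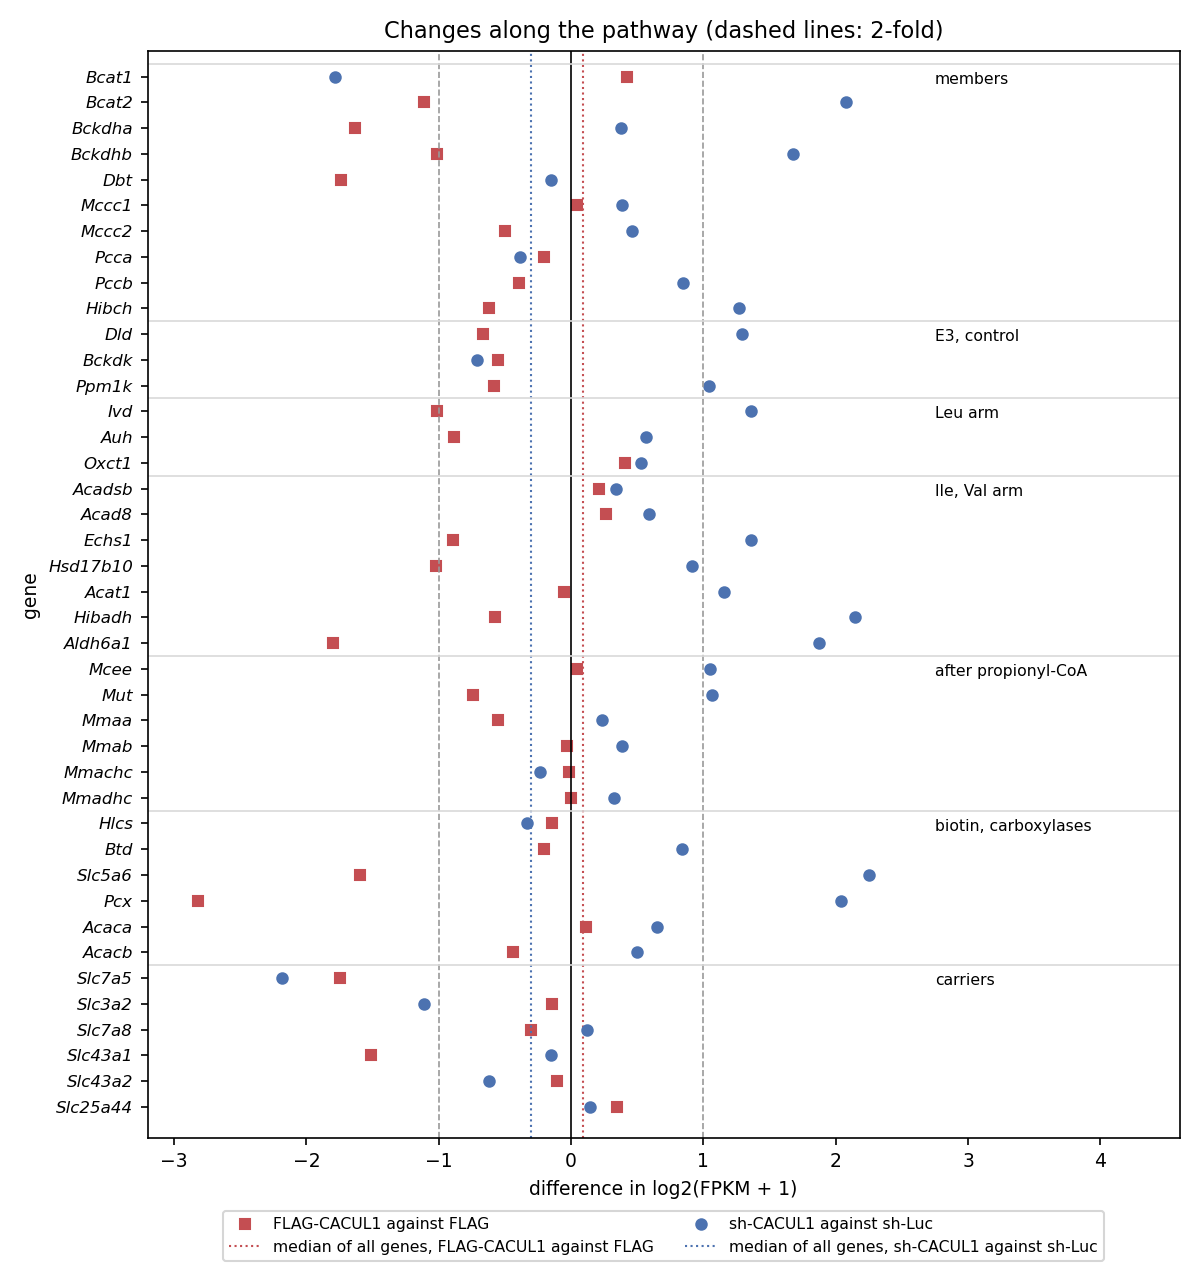
Difference in log2(FPKM + 1) for the 10 members and 31 other listed genes, by role, with biotin genes, other carboxylases and carriers among them. Squares are FLAG-CACUL1 against FLAG and circles sh-CACUL1 against sh-Luc. Dashed lines mark 2-fold and dotted lines the medians of all genes (0.09 and -0.30). No gene stood 2-fold higher in FLAG-CACUL1, and Slc7a5 was past 2-fold lower in both comparisons.

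Other mitochondrial routes are set beside the pathway. Of 20 TCA cycle and pyruvate dehydrogenase genes, 4 passed 2-fold downwards in FLAG-CACUL1 (median -0.41) and 5 upwards in sh-CACUL1 (median 0.88). Of 16 β-oxidation genes, 4 were lower and 1 higher in FLAG-CACUL1 (median -0.57), and 8 were higher and 1 lower in sh-CACUL1 (median 1.00). Of all genes, 7.22% were 2-fold lower and 7.51% higher in FLAG-CACUL1, and 4.94% higher and 16.4% lower in sh-CACUL1. The medians of the members, -0.56 and 0.42, lay on the same sides of 0, and no difference between the routes was tested. The FPKM of the 10 members summed to 230.5 in FLAG and 118.7 in FLAG-CACUL1, and 159.8 with sh-Luc and 347.2 with sh-CACUL1. Bcat2 made up 25.2%, 22.2%, 22.1% and 43.9% of that sum, and Bckdha 28.9%, 17.5%, 20.8% and 12.6%. The share of Bcat2 was highest, and that of Bckdha lowest, in sh-CACUL1.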

How the data were processed

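The authors deposited FPKM values, 1 table per sample with 13110 rows of RefSeq transcripts, from libraries made and sequenced by a company. The build is mm10 per the submitters' processing notes, and the aligner and the program that computed FPKM are not given in the sources used here. FPKM are not counts, and the values hold no replicates, so no count test or other test was run.

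Symbols were assigned by RefSeq identifier with GENCODE M21 (GRCm38). Rows without a symbol (196) or with more than 1 (8) were kept as entries of their own and are counted among all genes. Summing 50 rows that shared 25 symbols left 13085 genes. Coordinates are those of the GENCODE genes. A change is the difference in log2(FPKM + 1), which understates the change of low genes, and a gene was counted as higher or lower at 2-fold or more. Each condition was set against the control with its own vector.

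Depth was estimated from steps in low FPKM values of transcripts of at least 3 kb, of which 49.4% to 64.4% per sample lay within 0.1 of a step. Members other than Bcat1 had an estimated 83 (Dbt in FLAG-CACUL1) to 3864 fragments, and the 95% intervals rest on these estimates and cover counting error only. The shortest transcript of a gene was used for its fragments. Promoters were from RefSeq (GRCm38.p6).

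The members and lists were chosen with earlier results of these data known. Some genes of the lists are not reported here and are in none of their counts. All members are named. Of the 31 other listed genes, those past 2-fold in both comparisons and the 3 with the largest change in each were named by rule. The rest were picked for their role after their values were seen. There were 9 alternatives: a pseudocount of 0.1 or none, at least 1 FPKM in any or in all samples, quantile normalization, median-of-ratios scaling, the control with the other vector, only the highest row of a symbol, and a 3-fold cut-off. The scripts were tested on simulated data. Python 3.11.15, numpy 2.4.6, scipy 1.17.1, pandas 2.3.3 and matplotlib 3.10.9 were used.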

Additional observations from a re-analysis of the deposited data

How the results depend on the processing

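No paired analysis was possible because each group has 1 sample. For the same reason no replicate could be left out. Against the other control, 0 members passed 2-fold downwards in FLAG-CACUL1 (4.87% of all genes) and 2 (Bcat1 and Dbt) in sh-CACUL1 (15.4% of all genes), where 2 were higher (Bcat2 and Hibch, 7.45% of all genes), and both changes of Bckdhb turned (0.84 and -0.18, respectively). Of 20 single changes, 6 then moved by less than the margin of their counting interval, from its middle to its end. The cause was not tested. At 3-fold, 2 members were lower in FLAG-CACUL1 (Bckdha and Dbt, 2.90% of all genes) and 1 was higher in FLAG than in sh-Luc (Bckdhb, 4.10%). With 1 FPKM or more in all samples, 0 were lower in sh-CACUL1, since Bcat1 was no longer among the genes counted. The median of the members in sh-CACUL1 became 0.86 after quantile normalization and 0.87 after median-of-ratios scaling, and in FLAG against sh-Luc it became 0.057 and 0.13. The median of all genes rose as well, from -0.30 to -0.013 and 0.0079 in sh-CACUL1. In FLAG against sh-Luc it rose from -0.18 to -0.066 and -0.0049. Of 30 single changes, 17 moved by less than this margin after quantile normalization and 13 after median-of-ratios scaling. The margins are those of FPKM ratios without a pseudocount, and they do not say whether a change lies inside its interval. A pseudocount of 0.1 or none moved 3 of 30 past their margin. The filter on any sample and the choice of row moved 0 of 30. Of the 31 other listed genes, 16 were 2-fold higher and 1 lower in sh-CACUL1 after quantile normalization (9% and 8.28% of all genes). After median-of-ratios scaling 17 were higher and 1 lower (9.41% and 7.45% of all genes). Against the other control 5 were lower in FLAG-CACUL1 (4.87% of all genes). Depth limits Bcat1 in sh-CACUL1 most, at an estimated 15 fragments.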

Other observations

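The partners of the aminotransferase reaction in glutamate metabolism are given by 6 genes chosen after the data had been seen. In FLAG-CACUL1 against FLAG, 5 of 6 were lower, 2 of them by 2-fold or more (7.22% of all genes), with a median of -0.25. In sh-CACUL1 against sh-Luc 3 of 6 were higher, 2 of them by 2-fold or more (4.94% of all genes), with a median of 0.16. Gpt, the cytosolic alanine aminotransferase, was at 9.64 FPKM in FLAG and 1.92 in FLAG-CACUL1, and at 4.72 with sh-Luc and 25.5 with sh-CACUL1, the sample order of Bcat2. Its mitochondrial counterpart Gpt2 was at 32.5, 12.8, 16.6 and 8.15 FPKM, respectively, lowest where Gpt was highest. The cytosolic and mitochondrial forms thus stood in opposite directions in sh-CACUL1 (2.21 for Gpt and -0.94, under 2-fold, for Gpt2). Those of the branched-chain aminotransferase did so too, with the compartments exchanged. The likeness did not hold in FLAG-CACUL1, where Gpt and Gpt2 were both lower (-1.87 and -1.28) and Bcat1 and Bcat2 parted (0.42 and -1.11). Glul, which makes glutamine from glutamate, was at 47.8, 42.4, 80.6 and 166 FPKM, respectively, a change of 1.04 in sh-CACUL1 against sh-Luc. Glud1, Got1 and Got2 stayed under 2-fold in both comparisons.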
